A study of Mus musculus with 30 samples.

Results

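Livers of 4 male mice at postnatal day (PND) 42 that had been exposed to cadmium chloride (500 ppb) during gestation were compared with livers of 4 male controls of the same age. The members are these 8 libraries, chosen by age, sex and exposure as the labels give them, out of 30 libraries in all, and 13091 genes were measured in each. All mice were of CD-1, an outbred stock, so that animals of 1 group also differ in genotype. The 4 exposed and 4 control females of the same age entered the same fit, where they add to the estimate of the spread, and their values are given beside the male ones and in the test of the difference between sexes. The labels do not state the route and days of exposure or which animals were litter mates, and each animal was taken as independent.

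Cadmium is a toxic metal that has no known role in mammals and that is taken up through carriers of zinc, iron and manganese. In liver it is bound by metallothioneins, small cysteine-rich proteins whose genes are switched on by the zinc sensor MTF1 at metal response elements. Metallothioneins are also acute-phase genes, which respond to glucocorticoids and inflammatory cytokines. Cells meet misfolded protein in the cytosol with heat shock chaperones under the factor HSF1, and in the endoplasmic reticulum with the unfolded protein response, in which ATF6 and XBP1 raise chaperones and the machinery that removes misfolded proteins.

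Values are normalised counts, that is, reads per gene divided by a size factor of the library. They are listed for exposed replicates 1, 2, 3 and 4, and for control replicate 1 followed by 3 control males without a replicate number, called a, b and c. Read totals ran from 27.8 to 37.4 M reads in exposed and from 27.7 to 32.3 M reads in control males. The male labels held in every library, with Xist at 33.6 to 53.8 in males, against at least 33940 in females. Of 30 hepatocyte markers, 27 were measured. Control c stood apart along the first principal component (34.8% of the variance among males), and exposed replicates 1 and 2 and control a lay at its other end. The share of reads from mitochondrially encoded genes was 22.3%, 29.7%, 18.8% and 14.5% in exposed males, against 18.1%, 24.8%, 16.4% and 9.03% in control males (exact two-sided permutation p = 0.429).

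No gene passed the test in males. Of 13091 genes, 0 (0%) had a Benjamini-Hochberg adjusted p under 0.05 in limma, and the smallest adjusted p was 0.622. At an unadjusted p under 0.05 there were 932 genes (7.12%), where 655 would be expected with no difference in any gene, but with the 8 male libraries alone there were 455, fewer than that, and the smallest adjusted p was 0.859. Of these, 488 (3.73%) had the higher mean in exposed and 444 (3.39%) the lower mean, and all 932 shared the adjusted p of 0.622. In limma voom on the recovered reads 0 genes passed as well, with 733 at an unadjusted p under 0.05. Without control a 27 genes passed, 14 with higher and 13 with lower levels in exposed males, among them Bcl9, Dnaja4, Cbr1 and Ighd, and in the 7 other removals of 1 male library 0 passed. The 4 exposed values lay above all 4 control values for 117 genes (0.894%) and below them for 109 genes (0.833%). The mean was lower in exposed males for 6925 genes (52.9%) and higher for 6165 (47.1%), and the absolute log2 fold change was over 1 in 496 genes (3.79%), against 2880 (22%) in females. The median absolute log2 fold change was 0.23 in males, beside a median standard error of 0.24. In females the same fit called 5269 genes (40.2%), with a median absolute log2 fold change of 0.55. The standard error of each gene is equal in both sexes, since the fit holds 1 variance per gene and 4 animals per group. That does not show whether males and females varied alike. Library weights estimated in an alternative fit, lower for more variable libraries, ran from 0.296 to 2.09 in males and from 0.873 to 2.55 in females. What follows is therefore a description of levels in single livers and of groups of genes, in which no member passed the test in males.

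The metallothioneins were far higher in exposed replicate 1 than in any other male. Mt1 (chr8:94179082-94180327, build mm10) had 75232, 2239, 1706 and 5498 normalised counts in exposed males, against 6978, 524, 1311 and 3357 in control males. Mt2 (chr8:94172664-94173568) had 34195, 1172, 864 and 2093 in exposed males, against 5156, 142, 1218 and 3158 in control males. In exposed replicates 2, 3 and 4 both genes lay within the span of the controls, and control a had the lowest level of both. The log2 fold change of Mt1 was 1.65 ± 1.40 (SE, limma, adjusted p = 0.684) and that of Mt2 was 1.17 ± 1.52 (adjusted p = 0.782). Without exposed replicate 1 they were 0.46 and -0.01, with exact two-sided permutation p of 0.686 and 0.914, where 3 against 4 libraries cannot go below 0.0571. Without control a, the lowest control, they were 1.01 for Mt1 and 0.11 for Mt2. The higher mean of Mt2 thus depended on each of these 2 animals.

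The sequences upstream of the annotated starts of these genes were searched for the metal response core. They are RefSeq sequences of GRCm38.p6 on the plus strand, at chr8:94178839-94179081 for Mt1 and chr8:94172368-94172617 for Mt2. Capitals mark the metal response core, TGCACNC or TGCGCNC on either strand.
Mt1: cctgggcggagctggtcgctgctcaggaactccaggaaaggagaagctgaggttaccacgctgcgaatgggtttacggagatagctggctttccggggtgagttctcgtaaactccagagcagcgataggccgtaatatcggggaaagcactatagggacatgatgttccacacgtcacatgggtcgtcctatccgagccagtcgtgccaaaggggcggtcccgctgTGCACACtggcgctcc
Mt2: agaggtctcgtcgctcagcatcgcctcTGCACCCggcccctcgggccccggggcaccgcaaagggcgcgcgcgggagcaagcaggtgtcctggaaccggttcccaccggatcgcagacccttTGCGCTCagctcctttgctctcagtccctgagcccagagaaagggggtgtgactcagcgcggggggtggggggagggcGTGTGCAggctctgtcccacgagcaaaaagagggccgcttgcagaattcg
The window of Mt1 held 1 core and that of Mt2 held 3. Bases after the RefSeq start were not searched, so elements there are not counted. Of the metal-handling genes, 11 of 20 with an upstream window of up to 250 bases held the core (55%), against 33.7% of 9911 genes. Known genes of metal handling make up the list, so its share follows in part from that choice. A match is a description of letters and not a bound site.

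Most other genes of metal handling differed little between the groups. The list of metallothioneins, metal carriers and their regulators had 24 of 27 genes measured, of which 0 passed the test and 0 had an unadjusted p under 0.05. The mean was higher in exposed males for 8 and lower for 16, with a median log2 fold change of -0.07, beside -0.03 for all genes. With libraries scaled to total reads, which moved all genes alike, these medians were 0.03 and 0.08. Mtf1, the zinc sensor itself, had 942, 1004, 771 and 553 normalised counts in exposed males, against 911, 774, 888 and 669.5 in control males, with complete overlap. Slc30a1, the zinc exporter of the plasma membrane and a classic MTF1 target, had 543, 588, 851 and 1023 in exposed males, against 945, 652, 799.8 and 1339 in control males. Its lowest value was in exposed replicate 1, the library with the highest Mt1. Slc39a14, a carrier that brings zinc, manganese and iron into hepatocytes, had 10264, 12607, 7759.6 and 8694 in exposed males, against 7291, 11831, 8173 and 6709 in control males (log2 fold change 0.22 ± 0.22, SE). Slc11a2, an iron and cadmium carrier, had 608, 612, 521 and 581 in exposed males, against 592, 622, 644 and 747 in control males.

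**Figure D1:**
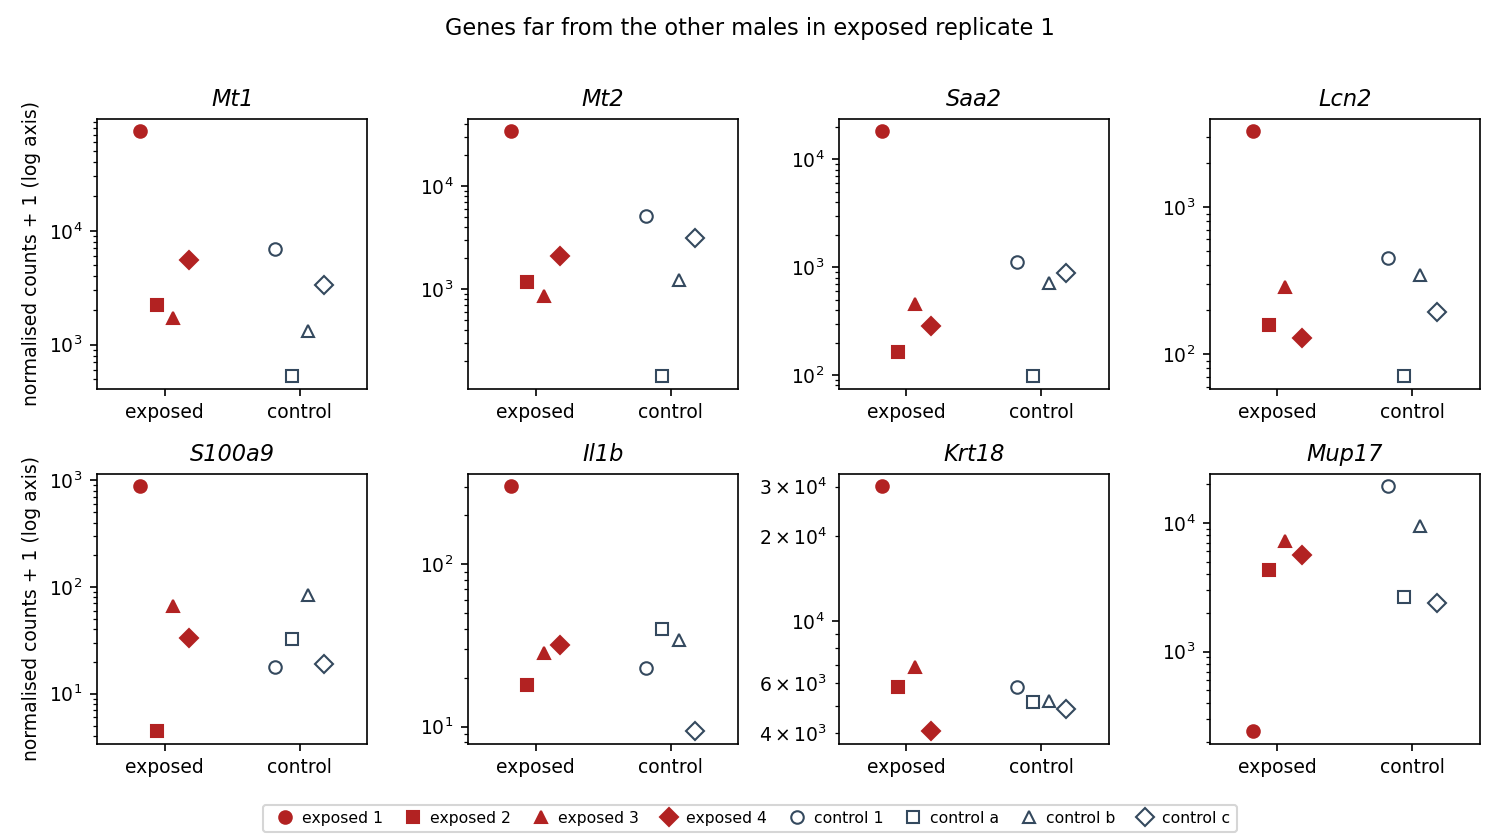
Normalised counts plus 1 on a log axis of 8 genes in each male liver, with exposed animals as filled symbols on the left and controls as open symbols on the right. Exposed replicate 1 (filled circle) stands above all other males for Mt1, Mt2, Saa2, Lcn2, S100a9, Il1b and Krt18 and below them for Mup17. The genes are shown because they were far from the other males in that library.

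Exposed replicate 1 was apart in many genes besides the metallothioneins. Each liver was compared over genes of at least 100 normalised counts in it or on average in the 7 other males. In exposed replicate 1, 113 such genes lay at least 1 log2 unit above the nearest other male and 66 lay as far below. The 7 other males had 7 to 42 above and 10 to 85 below. The genes of exposed replicate 1 were thus the most numerous above, while control c had more below. Of all genes, 17.6% had their highest value and 17.5% their lowest in it. Saa2 and Saa1, acute-phase apolipoproteins, had 18289 and 24966 normalised counts there, against 95.8 to 1126 and 408 to 7238 in the other males. These paralogs share reads, and the split between them is uncertain. Lcn2, the siderophore-binding protein of acute inflammation, had 3274 against 69.4 to 446, and Il1b, a cytokine of activated myeloid cells, had 303 against 8.35 to 39.1. Each of these genes was above the whole range of the other 7 animals. Since many genes named here were chosen by their gap to the nearest other male, this position follows in part from the choice. S100a9, a subunit of the neutrophil protein calprotectin, had 884 against 3.43 to 83.4. Prtn3, a neutrophil granule protease, had 434 against 2.59 to 79.7, and Csf3r, the receptor of granulocyte colony-stimulating factor, had 416 against 33.1 to 77.1. Krt18, a keratin of hepatocytes and bile duct cells, had 30176 against 4051 to 6850.2, and Atf3, a stress-induced transcription factor, had 292 against 26.4 to 62.8.

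As gene groups, the same liver held the highest value of many inflammatory and early-response genes and the lowest of many genes in some groups of hepatic metabolism. It held the highest value of 15 of 31 acute-phase genes, 12 of 21 immediate early genes and 8 of 11 cholangiocyte markers, against the 17.6% of all genes. All 4 measured neutrophil markers, of 18 listed, were highest in it, and their sum was 5007 normalised counts, against 219 to 508 in the other exposed and 189 to 527 in the control males. Most of that sum of 5007 came from Lcn2, named above as a protein of acute inflammation, and the rest from S100a9, Prtn3 and Csf3r. In RNA of whole tissue, more cells of a type and more RNA per cell cannot be told apart. It held the lowest value of 19 of 24 periportal genes, 23 of 45 drug-metabolising P450 and related genes, 23 of 44 genes of fatty acid oxidation and 18 of 33 glucocorticoid and fasting genes, against 17.5% of all genes. It was also lowest in 11 of 23 bile acid, 11 of 27 pericentral and 11 of 31 lipogenic genes. Some hepatocyte groups were nearer to the share of all genes. These were the hepatocyte markers (7 of 27 lowest in it), the apolipoprotein genes (4 of 21) and the complement and coagulation genes (9 of 43). The summed hepatocyte markers were lowest in control a and not in exposed replicate 1. Etnppl, a phospholyase induced by fasting, had 596 there, against 3106 to 6169 in the other males, and Noct, a clock-controlled phosphatase, had 259 against 1364 to 4891. Mup17, a major urinary protein under control of growth hormone, had 239 against 2384 to 19356. Of 18 measured genes of that family 13 were lowest in exposed replicate 1, but these near-identical copies share reads. Their sum, which does not depend on the split, was 389816 in exposed replicate 1, 498733 to 666439 in the other exposed and 489469 to 892453 in the control males.

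**Figure D2:**
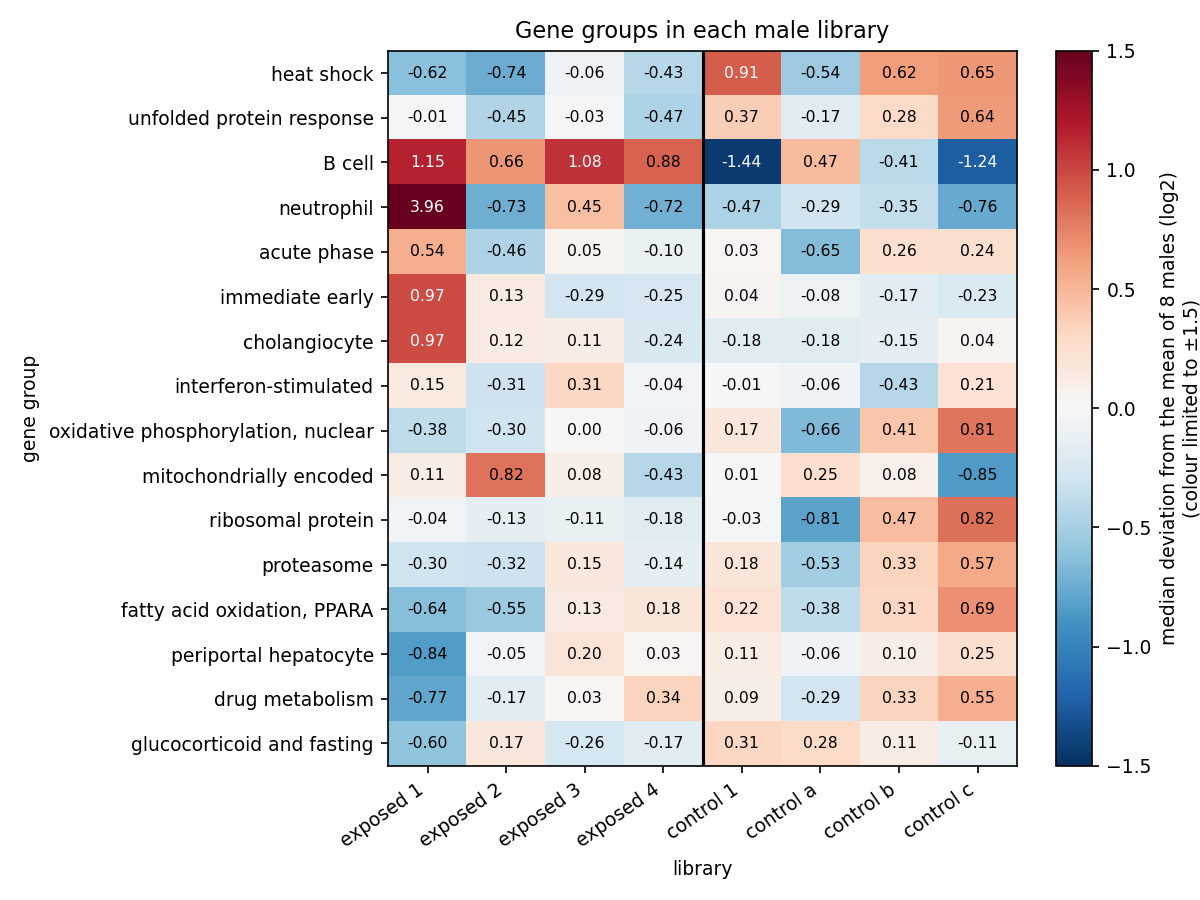
Each cell gives the median, over the members of a gene group, of the deviation of that library from the mean of the 8 males (log2, colour limited to 1.5 either way), with exposed males in the left 4 columns and controls in the right 4. Heat shock genes are negative in all exposed males and in control a and positive in the other controls, B cell markers are positive in all exposed males and in control a, and neutrophil markers stand out in exposed replicate 1 alone, at 3.96.

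Heat shock chaperones had lower means in exposed males. Of 24 genes measured, 22 had the lower mean, 13 an unadjusted p under 0.05, all lower (background 3.39%), and 5 had all exposed values below all control values (background 0.833%). The median log2 fold change was -0.81, beside -0.03 over all genes. Hspa1b, the stress-inducible Hsp70 (chr17:34956436-34959238), had 304, 187, 392 and 254 normalised counts in exposed males, against 3443, 561, 1671 and 1715 in control males (log2 fold change -2.48 ± 0.61, SE, unadjusted p = 0.000967). The highest exposed value was below the lowest control value. Hspa1a, its neighbour, had 123, 72, 123 and 50 in exposed males, against 802, 173, 342 and 342 in control males. The upstream 250 bases of these copies differ at 3 positions, and reads may be split between them with error. Hsph1, an Hsp110 that exchanges nucleotide on Hsp70, had 616, 1068, 1214 and 1074 in exposed males, against 6417, 1862, 3684 and 3101 in control males (-1.83 ± 0.67). Chordc1, a partner of Hsp90, had 1075, 1033, 1714 and 1315 in exposed males, against 3427, 1849, 2742 and 3062 in control males (-1.10 ± 0.32), and Dnajb4, an Hsp40, had 729, 805, 1131 and 1246 in exposed males, against 2021, 1299, 1487 and 1749.7 in control males (-0.76 ± 0.22). These groups were also separate.

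Further members had lower means with overlap between the groups. Hspa8, the constitutive Hsp70, had 7359.6, 13409, 28364 and 17519 normalised counts in exposed males, against 57488, 14171, 57461 and 47744 in control males (-1.38 ± 0.47), and Bag3, a co-chaperone of Hsp70 in autophagy, had 597, 472, 802 and 495 in exposed males, against 2573, 763, 1314 and 1229 in control males (-1.20 ± 0.35). Control a lay below exposed replicates 3 and 4 for Hspa8 and below exposed replicate 3 for Bag3, and the other controls lay above all exposed animals. Hsf1, the factor that controls the group, had 558, 700.3, 525 and 625 in exposed males, against 586, 780.1, 592 and 430.1 in control males (0.04 ± 0.17), with overlap. Dnaja4, an Hsp40 that was not on the list and is named because it had the second lowest p of all genes, had 127, 94.8, 161 and 147.5 in exposed males, against 546, 213, 417 and 267 in control males (-1.37 ± 0.31, unadjusted p = 0.000367), without overlap. Control replicate 1 had the highest level of 17 of the 24 genes, and without it 7 had an unadjusted p under 0.05 and the median was -0.64. Without exposed replicate 1 the median was -0.78 and 11 genes had such a p. The count was 3 without exposed replicates 1 and 2 and control c, with a median of -0.62, and 19 with library weights. All 24 genes had the same sign of difference in females, where 14 were called lower and 2, Hsf1 and Hsf2, higher (background 21.4% and 18.9%). The share of all genes with the same sign in both sexes was not counted, so the sign count has no background. For 0 of the 24 did the male and female differences differ by the test of that difference (background 7.91%). In so few genes that count lies near the background.

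Upstream windows of 2 heat shock genes are shown, since most members had lower means together. They are RefSeq sequences of GRCm38.p6 on the minus strand, at chr17:34959239-34959488 for Hspa1b and chr6:128438678-128438906 for Fkbp4, an Hsp90-bound peptidyl-prolyl isomerase. Capitals mark the inverted pair of heat shock units, GAANNTTC or TTCNNGAA.
Hspa1b: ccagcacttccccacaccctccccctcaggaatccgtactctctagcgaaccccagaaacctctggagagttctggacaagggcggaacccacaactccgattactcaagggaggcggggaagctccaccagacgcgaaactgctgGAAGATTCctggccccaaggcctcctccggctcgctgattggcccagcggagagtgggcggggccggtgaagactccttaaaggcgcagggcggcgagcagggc
Fkbp4: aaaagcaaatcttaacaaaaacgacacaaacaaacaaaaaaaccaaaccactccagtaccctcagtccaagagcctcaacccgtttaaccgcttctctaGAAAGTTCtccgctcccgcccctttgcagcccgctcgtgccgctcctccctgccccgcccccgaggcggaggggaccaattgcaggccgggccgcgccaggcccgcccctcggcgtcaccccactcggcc
Of 19 heat shock genes with a window, 9 held the pair (47.4%), against 12.3% of 9911 genes, which include the listed ones. Since the list was written from known heat shock genes, its share follows in part from that choice. It says nothing about the difference between exposed and control males.

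Genes of the unfolded protein response showed the same direction. Of 28 measured, 25 had the lower mean in exposed males, 13 had an unadjusted p under 0.05, all lower (background 3.39%), and 5 had all exposed values below all control values (background 0.833%). The median log2 fold change was -0.51. Sel1l, the adaptor of the ubiquitin ligase that clears misfolded proteins (chr12:91806043-91849157), had 2438, 2122, 2651 and 2128 normalised counts in exposed males, against 4129, 3367, 4747 and 3605 in control males (log2 fold change -0.76 ± 0.18, SE, unadjusted p = 0.000464). Dnajb9, a co-chaperone of BiP, had 876, 555, 1073 and 701 in exposed males, against 2714, 1321, 1719 and 4634 in control males (-1.57 ± 0.45), and Herpud1, a scaffold of the same clearance machinery, had 5285, 7834, 8976 and 7329 in exposed males, against 15596, 9658, 10716 and 16314 in control males (-0.82 ± 0.23). In each the 4 exposed animals lay below all controls, as they did for Edem1 (-0.43) and the sensor Atf6 (-0.24), whose difference was small. Creld2, a secreted folding factor, had 1545, 479.8, 694 and 383 in exposed males, against 2612, 1489.9, 1713 and 2622 in control males (-1.62 ± 0.50). Hspa5, which encodes BiP, the central chaperone of this compartment, had 11158, 5362, 12436 and 6876 in exposed males, against 23675, 9093, 19963 and 30556 in control males (-1.17 ± 0.41). The groups overlapped because control a lay below exposed replicate 1 for Creld2 and below exposed replicates 1 and 3 for Hspa5. Xbp1, a transcription factor of the response, went the other way, with 5872, 4743, 5729 and 7619 in exposed males, against 4252, 3377, 7007 and 6555 in control males (0.22 ± 0.25, unadjusted p = 0.387).

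Control c had the highest level of 20 of these 28 genes, as it had the lowest share of mitochondrially encoded reads. Without control c 7 genes had an unadjusted p under 0.05, without exposed replicate 2 there were 8, and without control a there were 20, beside 13 with all libraries, and the median ran from -0.39 to -0.69 over the 8 removals. Without exposed replicates 1 and 2 and control c together there were 5, with a median of -0.33. With the mean of genes holding over 300 kb of intron as a covariate, a measure that was highest in exposed replicate 2 and lowest in control c as the mitochondrial share was, the median was -0.34 and 6 genes had such a p in the lower direction, while for heat shock genes these values were -0.64 and 5. In females 22 of the 28 genes were called lower (background 21.4%). For 4 genes, Pdia4, Pdia6, Selenos and Xbp1, the male difference was higher than the female one by the test of the difference (background 4.07%).

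**Figure D3:**
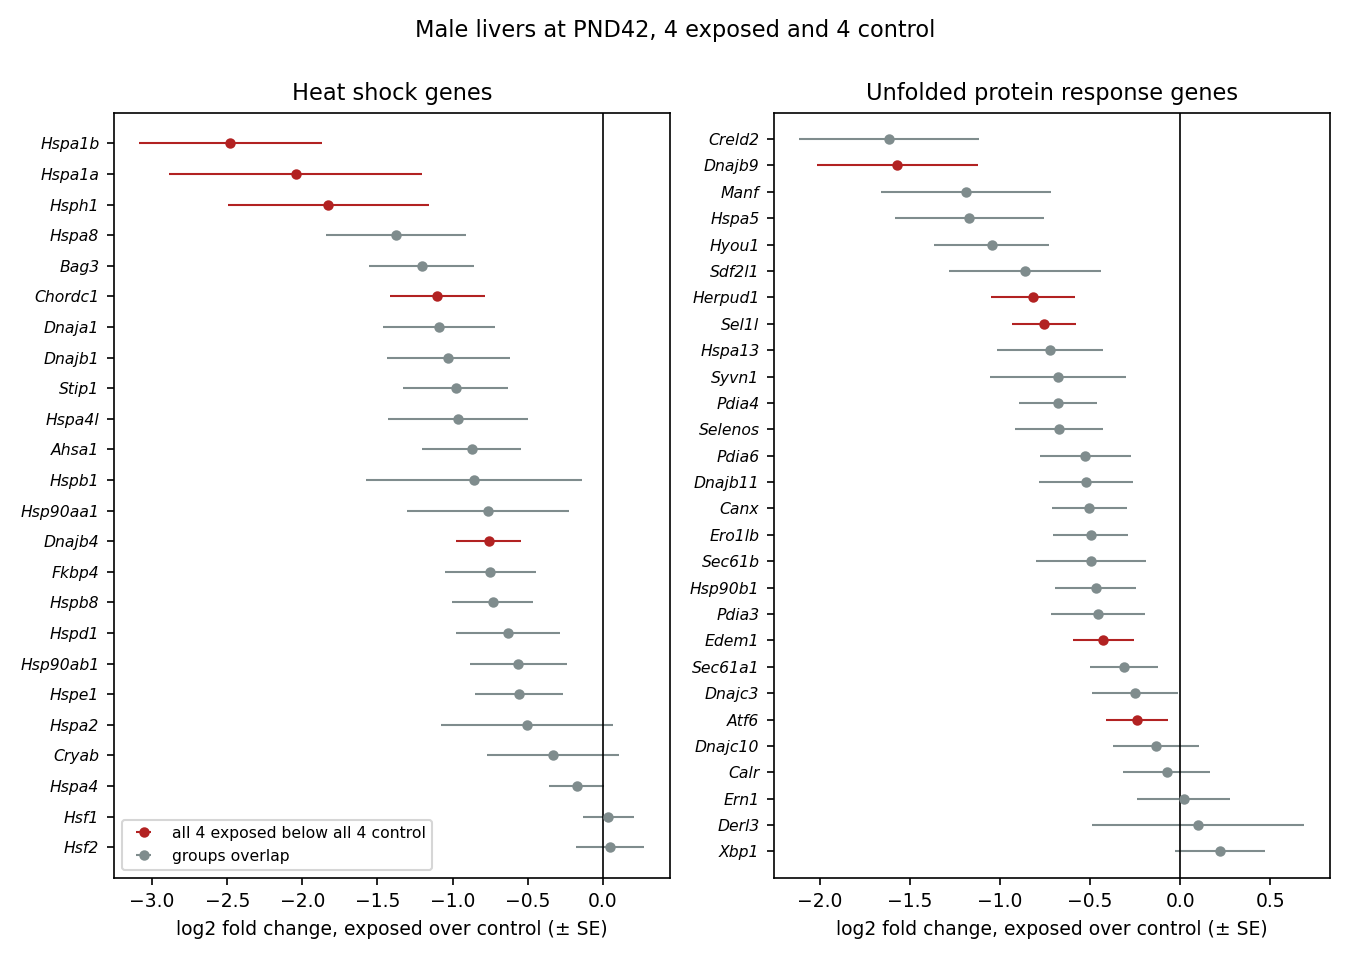
Log2 fold change of exposed over control males with its standard error for 24 heat shock genes and 28 genes of the unfolded protein response, ordered by size. Most points lie left of 0, and those in red, such as Hspa1b at -2.48 and Sel1l at -0.76, had all 4 exposed values below all 4 control values.

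Upstream windows of 2 of these genes are shown for the same reason. They are RefSeq sequences of GRCm38.p6, at chr15:88819396-88819645 on the plus strand for Creld2 and at chr11:50325674-50325923 on the minus strand for Canx, the lectin chaperone calnexin, which had 4648, 4771, 6756 and 4854 normalised counts in exposed males, against 7699, 5611, 7779 and 8772 in control males (-0.50 ± 0.21). Capitals mark the ER stress response element, which is CCAAT, any 9 bases and CCACG, on either strand.
Creld2: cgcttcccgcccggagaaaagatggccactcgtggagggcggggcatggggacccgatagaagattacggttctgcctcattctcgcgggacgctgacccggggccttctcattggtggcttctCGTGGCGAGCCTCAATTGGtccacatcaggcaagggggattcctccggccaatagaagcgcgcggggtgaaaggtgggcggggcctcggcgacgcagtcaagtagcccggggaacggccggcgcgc
Canx: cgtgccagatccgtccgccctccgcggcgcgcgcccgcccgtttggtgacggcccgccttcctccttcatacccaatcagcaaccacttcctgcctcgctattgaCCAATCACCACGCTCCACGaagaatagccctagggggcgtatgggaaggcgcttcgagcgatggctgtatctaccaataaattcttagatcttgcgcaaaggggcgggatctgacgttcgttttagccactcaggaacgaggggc
Of 22 listed genes with a window, 9 held the element (40.9%), against 0.182% of 9911 genes, which include the listed ones. The list was written from known genes of this response, so its share follows from that choice. It says nothing about the difference between exposed and control males.

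Markers of B cells had higher means in exposed males. Of 15 listed, 12 were measured, and all 12 had the higher mean, 8 an unadjusted p under 0.05 (background 3.73%) and 4 all exposed values above all control values (background 0.894%). The median log2 fold change was 1.55. Ighm, the heavy chain of immunoglobulin M (chr12:113418558-113422730), had 690.1, 303, 438 and 571 normalised counts in exposed males, against 283, 242, 127 and 117 in control males (log2 fold change 1.41 ± 0.33, SE, unadjusted p = 0.000463). Ighd, the heavy chain of immunoglobulin D on naive B cells, had 97.4, 90.3, 88.8 and 88.8 in exposed males, against 1.29, 49.9, 22.5 and 15.3 in control males (2.67 ± 0.66). Cd22, an inhibitory co-receptor, had 117, 65.1, 52.3 and 47.4 in exposed males, against 24.6, 26.4, 22.5 and 34.8 in control males (1.27 ± 0.31), and Fcer2a, the low-affinity receptor of immunoglobulin E, had 21.1, 30.8, 48.3 and 21.6 in exposed males, against 3.88, 16.6, 10.6 and 0 in control males (2.40 ± 0.71). These 4 genes were separate between the groups. Ms4a1, which encodes CD20, had 9.04, 70.8, 57.5 and 45.7 in exposed males, against 5.17, 12.7, 7.94 and 5.57 in control males (2.16 ± 0.56), and here exposed replicate 1 was as low as the controls. Pax5, the transcription factor that maintains B cell identity, had 39.2, 65.1, 53.6 and 58.6 in exposed males, against 12.9, 41.1, 11.9 and 9.74 in control males (1.68 ± 0.54). Control a reached into the exposed range, and the other controls lay below all exposed animals. Of the 12 markers, all but Ighm had a mean under 100 normalised counts over the libraries fitted.

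The summed level of the 12 markers was 1325, 789, 1023 and 1081 in exposed males, against 372, 626, 361 and 285 in control males. Every exposed animal was above every control, and the exact two-sided permutation p of 0.0286 was the smallest that 4 against 4 allows, with 0.543 after adjustment over the 19 measures compared. Without exposed replicate 1 the p was 0.0571, again the smallest possible. The median log2 fold change ran from 1.34 to 2.0 over the 8 removals of 1 library. Blnk, the adaptor below the B cell receptor, was not on the list and is named for its low p, with 286, 118, 128 and 187 in exposed males, against 53, 108, 62.2 and 39 in control males (1.45 ± 0.35), without overlap. Summed T and NK cell markers were 304 to 579 in exposed and 253 to 466 in control males (exact permutation p = 0.429), and Kupffer cell markers 9274 to 12045 in exposed and 10051 to 13501 in control males (p = 0.371, by the same test). The 2 lists overlapped between groups. For 0 of the 12 B cell genes did the male and female differences differ by the test (background 7.91%), and 3 were called higher in females (background 18.9%).

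**Figure D4:**
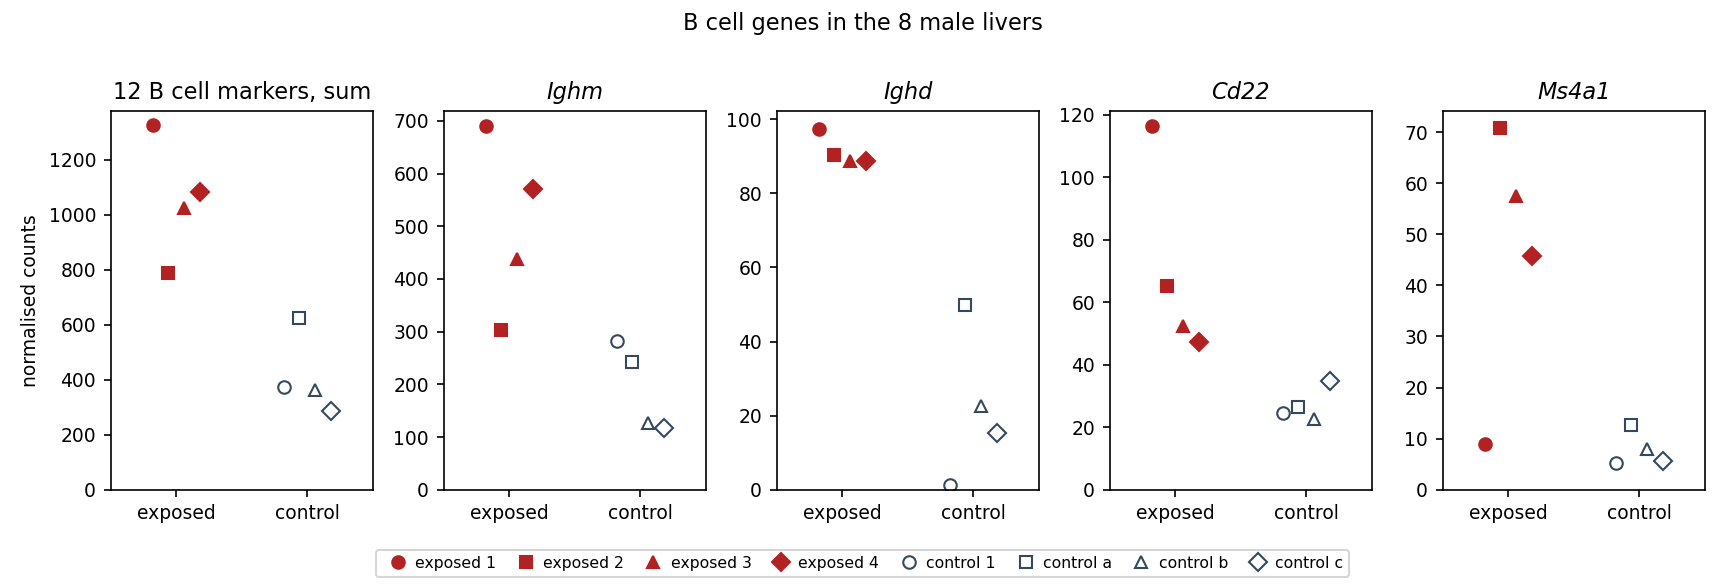
Normalised counts in each male liver of the 12 B cell markers summed and of Ighm, Ighd, Cd22 and Ms4a1, with exposed males as filled and controls as open symbols. The exposed animals lie above all controls in the sum and in the first 3 genes, while for Ms4a1 exposed replicate 1 has 9.04 and overlaps the controls.

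Of the 24 genes of lowest p, 16 had higher and 8 lower means in exposed males, and 20 were separate between the groups. Their unadjusted p ran from 0.000274 to 0.0014 and their absolute log2 fold changes from 0.59 to 4.55. These genes were chosen by their p, and the count of separate groups follows in part from that choice. Bcl9, a co-activator of beta-catenin (chr3:97203662-97297917), had the lowest p, with 389, 378, 249.6 and 271 normalised counts in exposed males, against 127, 228, 176 and 143 in control males (0.94 ± 0.21). Cbr1, a carbonyl reductase among the NRF2 targets, had 1049, 1484, 1692 and 2044 in exposed males, against 2990.4, 2147, 3194 and 3960.1 in control males (-0.98 ± 0.23). Swap70, a signalling protein abundant in B cells, had 421, 415, 303 and 308 in exposed males, against 225, 228, 232 and 210.2 in control males (0.67 ± 0.16). All 3 were separate, by a narrow gap in Cbr1 and Bcl9. Birc3, an inhibitor of apoptosis, had 936, 1008, 567 and 686 in exposed males, against 465, 546, 515 and 341 in control males (0.76 ± 0.19), and Trp53inp2, a protein of autophagy, had 6155, 4619, 6586 and 4854 in exposed males, against 11503, 7734, 13179 and 9631 in control males (-0.91 ± 0.23). Ildr2, a membrane protein of the immunoglobulin family, had 824, 424, 499 and 503 in exposed males, against 82.7, 109, 410.5 and 83.5 in control males (2.03 ± 0.50), where control b lay close to the exposed animals. In females 22 of the 24 had the same sign, a count without a background, since the share over all genes was not counted. In females 11 of the 24 were called, all with that sign, which is near the 40.2% of all genes called in females. Itgax, the integrin CD11c of dendritic cells and macrophages, was the 1 gene of the 24 with male and female differences that were called unlike, at 2.85 ± 0.86 (log2, male minus female, SE, adjusted p = 0.0484), with 103, 24, 39.2 and 35.4 in exposed males, against 18.1, 15.6, 6.62 and 1.39 in control males.

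Several genes of hepatic metabolism and of the clock were separate between the groups. Ahcy, which splits S-adenosylhomocysteine in the methionine cycle, had 2730.1, 5155, 5889.9 and 9186 normalised counts in exposed males, against 17413, 11690.2, 29030.3 and 21257 in control males (log2 fold change -1.84 ± 0.48, SE, unadjusted p = 0.00153). Its highest exposed value was below the lowest control value. Cyp4a10, a fatty acid omega-hydroxylase under PPARA, had 78.3, 257, 339.7 and 582 in exposed males, against 883, 619.8, 1099 and 1073 in control males (-1.83 ± 0.57). Its relative Cyp4a14 had 13.1, 78.8, 74.5 and 61.2 in exposed males, against 73.7, 284, 326 and 489 in control males (-2.33 ± 0.72), where control replicate 1 overlapped the exposed animals. Of 44 genes of fatty acid oxidation and PPARA targets, 42 had the lower mean, and 4 had an unadjusted p under 0.05, all lower (background 3.39%). That count was 24 when control a was left out, 18 when exposed replicate 4 was, 13 when exposed replicate 3 was, and 2 on removal of exposed replicate 1, control replicate 1 or control b. Without exposed replicates 1 and 2 and control c together it was 0, and 32 genes had the higher mean, with a median of 0.17 in place of -0.41. Arntl, which encodes the clock factor BMAL1, had 107, 54.8, 49.6 and 103 in exposed males, against 185, 189, 388 and 188 in control males (-1.58 ± 0.53), and Nfil3, the repressor of D-box genes, had 361, 216, 357 and 442 in exposed males, against 455, 496, 709.7 and 769.8 in control males (-0.83 ± 0.28). Dbp, the activator of D-box genes and opposite in phase to Arntl, had 4285, 8214, 6897 and 5602 in exposed males, against 3586, 4979.9, 2059 and 2126 in control males (1.03 ± 0.55, unadjusted p = 0.0811). The labels do not state the time of day at dissection. Of 26 clock and output genes, 16 had the lower and 10 the higher mean, and 4 had an unadjusted p under 0.05, all lower (background 3.39%). Without exposed replicate 1 there were 11 with the lower and 15 with the higher mean.

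Among the large gene groups, some had their extremes in control libraries. Of 76 nuclear genes of oxidative phosphorylation, 75 had the lower mean in exposed males (median -0.37). An unadjusted p under 0.05 was reached by 5, all lower (background 3.39%), and 0 had all exposed values below all control values (background 0.833%). Control c had the highest value of 73 and control a the lowest of 55, which are both controls. Without control a 63 genes had an unadjusted p under 0.05 and the median was -0.64, and without exposed replicates 1 and 2 and control c it was -0.01. Of 75 ribosomal protein genes 69 had the lower mean (median -0.25), with 0 at an unadjusted p under 0.05, and control c was highest in 69 and control a lowest in 68. All 7 measured mitochondrially encoded genes had the higher mean (median 0.27), with 0 at such a p. Which animals fell at each end thus cut across the exposure groups.

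The male and female differences were then compared directly. For 1036 of 13091 genes (7.91%) the exposure difference in males was unlike that in females at an adjusted p under 0.05, with 533 (4.07%) higher and 503 (3.84%) lower in males relative to females. Of the 1036, 1029 had the larger absolute difference in females, 1029 were called in females, 55 had an unadjusted p under 0.05 in males and 10 had an absolute log2 fold change over 1 in males. The signs were the same in 693 and opposite in 343. The calls thus lay mostly in genes that differed in females and little in males. Naaladl2, a gene of chr3:23798102-25144261 with over 300 kb of intron, had 1580.0, 2134, 1691 and 1516 normalised counts in exposed males, against 1394, 1627, 1739 and 1063 in control males, while it had 5995, 4553, 5560.1 and 3631 in exposed females, against 654, 578, 527 and 637 in control females. The male difference minus the female difference was -2.76 ± 0.26 (log2, SE, adjusted p = 6.58e-05). Nid1, a basement membrane glycoprotein, had 316, 363, 348 and 254 in exposed males, against 327, 251, 254 and 174 in control males, and 110.0, 116, 99.3 and 154.4 in exposed females, against 446, 602, 514 and 475 in control females (2.46 ± 0.29, adjusted p = 0.000395). The females separated in opposite directions for these genes and the males overlapped in both. Lyrm4, a subunit of the mitochondrial iron-sulphur cluster machinery, had 691, 625, 709 and 633 in exposed males, against 533, 791, 687 and 593 in control males, and 1328, 1181, 1132 and 1175 in exposed females, against 481, 347, 405 and 370.2 in control females (-1.55 ± 0.21, adjusted p = 0.00112).

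Long genes and RNA composition moved with this contrast. Of 338 genes with over 300 kb of intron, 120 were called unlike (35.5%, against 7.91% of all genes), and 7 of the 12 genes of lowest p had introns of that length. The share of mitochondrially encoded reads was 14.5% to 29.7% in exposed and 9.03% to 24.8% in control males, while it was 22.2% to 35.5% in exposed and 5.25% to 12.8% in control females. With that share as a covariate 25 genes were called, 24 of them among the 1036, and with the mean level of long-intron genes as a covariate 8 were called, 4 of them among the 1036, Naaladl2 and Nid1 included. Removal of exposed replicate 3, exposed replicate 4 or control replicate 1 left 492, 642 and 573 calls, and removal of control c gave 1929. Of the metal list, 5 of 24 genes were called unlike, all higher in males relative to females (background 4.07%). They were the zinc carriers Slc30a1, Slc39a4 and Slc39a8, the metal carrier Slc11a2 and ceruloplasmin (Cp). For Slc30a1 the male difference was -0.31 ± 0.22 and the female difference -1.58 ± 0.22 (log2, SE), which differed by 1.27 ± 0.31 (adjusted p = 0.022). Of 31 acute-phase genes 9 were called unlike in the same direction (background 4.07%), among them the 3 fibrinogen chains Fga, Fgb and Fgg.

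**Figure D5:**
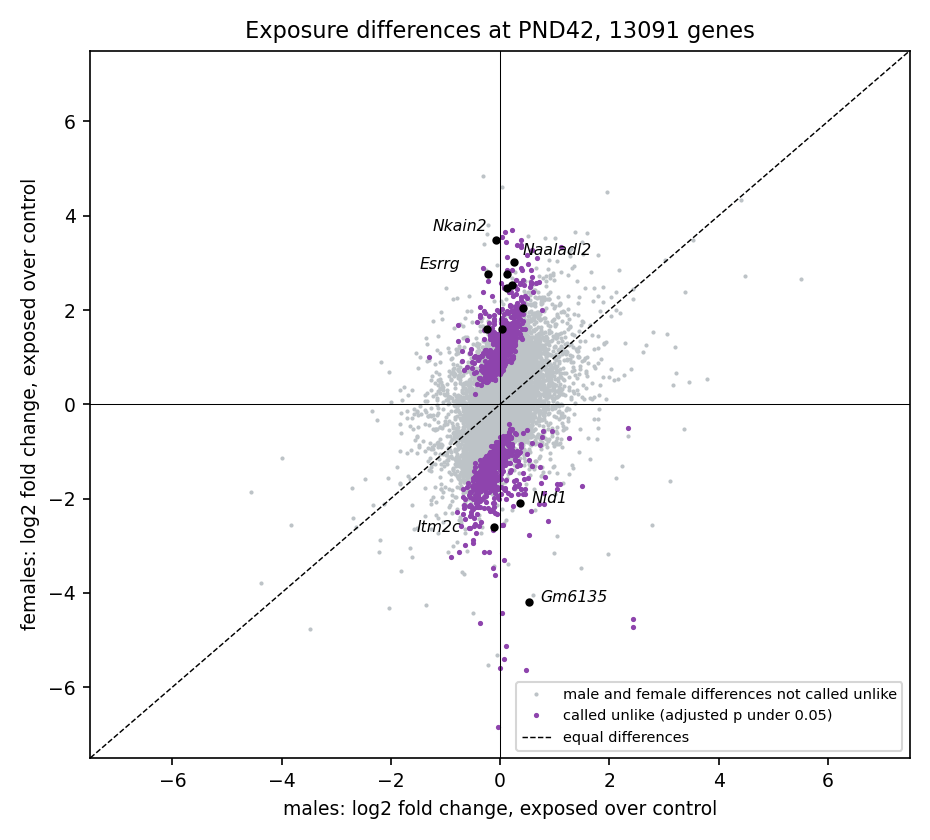
Log2 fold change of exposed over control in males (horizontal axis) and in females (vertical axis) for 13091 genes, with genes whose differences were called unlike in purple and the 12 of lowest p in black. The purple points spread along the female axis and stay near 0 on the male axis, as for Naaladl2, with 3.02 in females and 0.26 in males.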

How the data were processed

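Liver RNA was sequenced as single-end reads of 125 bp, per the labels' protocols, and every sample had an RNA integrity number of 7 or more. FastQC, STAR and featureCounts are named in the submitters' processing notes, with genome build mm10. Their versions are not given in the sources used here. Before deposit the authors deposited log2 values per gene and library. From the values, these are read counts divided by a library size factor, plus 1, on the log2 scale, since 100% of the values of each library came back within 0.1 of a whole read. The deposited signal column (baseMean) is the authors' mean normalised count over 16 libraries. Counting error limits genes of few reads, and genes outside the table are not analysed here. Reads of near-identical genes cannot be assigned with certainty.

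Library columns were matched to samples by their tags. Of the male controls, 1 column carries the tag of replicate 1 and 3 carry tags that match no PND42 sample, so these 3 were tied to their group by the column name alone and have no replicate number.

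The log2 values were fitted with limma (version 3.58.1, R 4.3.3, trend and robust options) in 1 fit of the 4 PND42 groups with 12 residual degrees of freedom, and contrasts were taken for males and for the male difference minus the female difference. A count model was planned for the case that the tables held raw counts and was not used. The filter, at least 10 normalised counts in at least 4 libraries, removed 0 genes. P values were two-sided and adjusted by Benjamini and Hochberg over 13091 genes with a threshold of 0.05. The fit was run on simulated data with independent noise of capped spread, a check of the code that does not measure power in these data. Single measures were compared by exact permutation over 70 regroupings (smallest p 0.0286), with adjustment over 19 measures. Gene lists (46) were described by counts and medians, with no test. The members and lists were chosen with earlier results of these data known. Where nothing says that animals came from separate litters, p values measure the spread between these animals only.

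Named genes were Mt1 and Mt2, the 24 of lowest p, up to 4 of lowest p per list, the 12 of lowest adjusted p between sexes, the 15 highest and 15 lowest in exposed replicate 1 by their gap to the nearest male, the 10 largest fold changes among separate genes of at least 100 normalised counts, and reference genes. Others were chosen after their values were seen, among them further list members and Dbp. Positions and introns are from GENCODE vM21, and 20 rows had no match there. Upstream sequences are from RefSeq. Alternatives were limma voom on recovered reads, no filter, a mean of at least 100, scaling to total reads or by trimmed means, a pseudocount of 8, no trend, males alone, library weights, removal of each male library, and, added after seeing the data, the mitochondrial and long-intron covariates and removal of the 3 libraries farthest from the others. One gene of the B cell list is not reported here by itself.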

Additional observations from a re-analysis of the deposited data

Results flagged for a closer look

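In groups of 4, a library was marked when its gap to the nearest of its group was large relative to the range of the group (Dixon's ratio above its critical value at the 95% level). Chance marks about 5% of groups. Among 19 single measures this held in 3 of 19 exposed and 1 of 19 control groups, among 32 genes of low p or separate groups in 3 exposed and 3 control groups, and among 28 genes chosen for standing apart in exposed replicate 1 in 7 exposed and 2 control groups. Since the last genes were chosen by such a gap and the others by their p or separation, these counts cannot be read against the chance rate.

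For summed cell type markers the ratio was 0.94 for neutrophil markers in exposed replicate 1, where the sum was mostly Lcn2. The ratio was 0.85 for mesothelium markers in the same library, a list that holds the hepatocyte and bile duct keratins Krt8 and Krt18. It was 0.926 for skeletal muscle in exposed replicate 2, where 1 of 14 markers was measured, and 0.845 for sinusoidal endothelium in control replicate 1. Exposed replicate 1 was the low library for 4930412C18Rik (0.97), Polr1d (0.872), Noct (0.865), Tmem14a (0.861), Cyp4a14 (0.857), Mup17 (0.849), Etnppl (0.84) and Igsf23 (0.832). Among the other exposed animals, Rps24-ps3 was high in replicate 3 (0.889). The ratio of 1.0 for A530016L24Rik in replicate 4 comes from a single read, worth 0.862 normalised counts, beside 0 in the other exposed animals. Among controls, Arntl was high in control b (0.973), as was Ildr2 (0.831), and Prtn3 was low there (0.848). A530016L24Rik was low in control a (0.891), and Gm44421 was high in control replicate 1 (0.903).

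The male difference was unlike the female difference for 1036 genes by the test of the difference itself. On the log2 scale, male minus female, the 12 genes of lowest p had values of 4.72 for Gm6135, 2.5 for Itm2c, 2.46 for Nid1, -1.55 for Lyrm4, -1.63 for Dip2c, -1.83 for Tmcc1, -2.3 for Immp2l, -2.35 for Egfem1, -2.63 for Fhit, -2.76 for Naaladl2, -3.0 for Esrrg and -3.56 for Nkain2. Their absolute male log2 fold changes were at most 0.53, and the smallest unadjusted male p among them was 0.0113.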

How the results depend on the processing

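The count of genes called in males was 0 under every alternative run except removal of control a, which gave 27, so that it ran from 0 to 27 over removals of 1 library. The count at an unadjusted p under 0.05 was 932 with all libraries, 455 with the 8 male libraries alone and 461 without the 3 farthest, and ran from 370 with the long-intron covariate to 3193 without control a. The count called unlike between sexes, 1036 with all libraries, was 2214 with library weights, 25 with the mitochondrial covariate, 8 with the long-intron covariate, 2947 without the 3 farthest libraries, and 492 to 1929 over removals of 1 male library. Scaling to total reads gave 779, of which 551 were higher and 228 lower in males relative to females, against 533 and 503 with the deposited scaling. It moved the median of all genes by 0.10. The difference of Mt2 was -0.12 with library weights and -0.0137 without exposed replicate 1, the lowest of its removals, which reached 1.83. Without that animal, the exposed minus control difference of summed markers was -40.6 for neutrophils and -336 for mesothelium. Without the 3 farthest libraries Cyp8b1 was at 0.00732 and Ndufs4 at 0.0299, in place of lower means. Of 1787 values for 90 named genes in males, 1775 kept direction and call, and 4 turned. Since 0 genes were called with all libraries, keeping the call was nearly fixed in advance. Most of these genes were named for a low p, which also favours a kept direction, so the counts do not measure stability. The cause of the changes between settings was not tested. Without a filter the values were identical. No paired analysis was possible because 3 of the 4 male control columns carry no replicate number.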

Other observations

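Some transcripts were near absent in part of the animals and abundant in others. Nlrp4e, a member of the NOD-like receptor family, had 1973, 303, 5.23 and 291 normalised counts in exposed males, against 1.29, 2.93, 10.6 and 1.39 in control males, high in 3 of 4 exposed males and at most 10.6 in the other males (log2 fold change 5.51 ± 1.85, SE, adjusted p = 0.622). A530016L24Rik, a gene of unknown function, had 0, 0, 0 and 0.862 in exposed males, against 47.8, 5.87, 38.4 and 41.8 in control males (-4.55 ± 1.10), with controls above all exposed animals. The pseudogenes Rps24-ps3, with 9.04, 9.14, 14.4 and 8.62 in exposed males, against 18.1, 224, 693 and 958 in control males, and Ftl1-ps1, with 204, 217, 476 and 465 in exposed males, against 64.6, 48.9, 83.4 and 167 in control males, were also separate in opposite directions, but their reads may belong to the parent genes.

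Some genes of other groups, none past the test, are given as values. Acta2, the smooth muscle actin of myofibroblasts and vessel walls, had 247, 442, 452 and 81.9 normalised counts in exposed males, against 72.4, 73.3, 195 and 19.5 in control males (1.89 ± 0.69), and Tagln, another smooth muscle gene, had 613, 534, 598 and 178 in exposed males, against 296, 233, 323 and 202 in control males (0.74 ± 0.33), with overlap for both. Lrat, which stores retinol in stellate cells, had 196, 266, 333 and 328 in exposed males, against 504, 325, 410.5 and 692 in control males (-0.76 ± 0.25). Of 42 matrix and stellate genes, 27 had the higher mean, 3 an unadjusted p under 0.05 in that direction (background 3.73%) and 1, Lrat, in the other (background 3.39%). Of 40 interferon-stimulated genes, 26 had the higher mean and 4 had such a p, all higher (background 3.73%), which were Irgm2, Nlrc5, Tap1 and Xaf1. Without control b 17 had the higher and 23 the lower mean, with 1 at such a p, and without exposed replicate 1 or 3 the split was 20 and 20, so that the direction rested on single libraries. Nlrc5, the activator of MHC class I genes, had 1212, 1107, 626 and 879.6 in exposed males, against 511, 1044, 352 and 376 in control males (0.85 ± 0.31), where control a overlapped the exposed animals. Of 33 glucocorticoid and fasting genes, 24 had the lower mean and 5 had such a p, all lower (background 3.39%). Tsc22d3, the glucocorticoid-induced leucine zipper, had 1561, 6859, 3968 and 3024 in exposed males, against 11717, 7119, 6324 and 6015 in control males (-1.16 ± 0.36), lowest in exposed replicate 1.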
